A study of Mus musculus with 6 samples.

Results

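The nuclear genes for the subunits of the oxidative phosphorylation system were followed in resident peritoneal macrophages with and without the transcription factor Gata6. Members were all probe sets annotated with a single gene symbol that starts with Nduf, Uqcr, Cox4, Cox5, Cox6, Cox7, Cox8 or Atp5, or that is Sdha, Sdhb, Sdhc, Sdhd or Cycs. This gave 183 of 34958 single-symbol probe sets, which stand for 91 of 18194 genes. By complex they comprised 34 genes of complex I, 4 of complex II, 8 of complex III, 1 for cytochrome c, 19 of complex IV (Ndufa4 and Ndufa4l2 were placed there), 17 of complex V and 8 Ndufaf genes, which encode complex I assembly factors and no subunits. The samples were 6 Affymetrix expression arrays, 3 labelled Gata6-KO (replicates 1 to 3) and 3 labelled Gata6-WT (replicates 1 to 3). Each array carried RNA of CD11b-high, MHCII-low or negative cells sorted from peritoneal lavage, pooled from 2 to 3 mice at 7 weeks of age. The Gata6-KO mice carried a floxed (conditional) Gata6 deficiency and the Gata6-WT mice were wild type; the sexes were matched per the series' design text. Which Cre line was used, and which exons it removed, the sources used here do not say. The comparison of the 2 genotypes addresses what the loss of Gata6 does to gene expression in these macrophages.

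Oxidative phosphorylation passes electrons from NADH (at complex I) and succinate (at complex II) to ubiquinone, from there through complex III and the mobile carrier cytochrome c to complex IV, which reduces oxygen. Complexes I, III and IV pump protons across the inner mitochondrial membrane, and complex V, the ATP synthase, uses the returning protons to make ATP. Most subunits are encoded in the nucleus, while a core set is encoded in mitochondrial DNA. In macrophages, complexes I and II are also known as sources of reactive oxygen species and as points at which activation changes metabolism.

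The transcription factor NRF1 is known for binding GC-rich sites near the starts of many respiratory chain genes, and the promoter sequences of 4 members that changed (below), 2 with its string before the start and 2 without, are shown for that reason. They were chosen after their strings and values were seen and do not stand for the other members. RefSeq promoter windows (GRCm38.p6, 250 bases before to 50 after the start of transcription) were at hand for 75 of the 91 members. The NRF1 string (GCGCA, any base, then GCGC) was read like the others on both strands. Shares are of genes with a window, and a gene counted if any of its windows held the string. The NRF1 string was found for 22.7% of the members (17 of 75), 11.1% of the tested genes (1122 of 10120) and 5.19% of all genes. The ETS string CCGGAAG, bound by GABP, was found for 25.3% of members and 19.3% of tested genes, and the YY1 string AAGATGGC for 13.3% and 5.08%. The last letters of the ETS string can be the first of the YY1 string. The GATA string AGATAA was found for 8.0% of members and 8.05% of tested genes. A match is a description of letters, not of binding. The 250 bases before the start are given 5′ to 3′ on the gene's strand (the minus strand for all 4), with NRF1 strings in capitals. They lie at chr6:50566570-50566819 for Cycs, chr13:74350241-74350490 for Sdha, chr15:82354292-82354541 for Ndufa6 and chr15:102671048-102671297 for Atp5g2.
Cycs: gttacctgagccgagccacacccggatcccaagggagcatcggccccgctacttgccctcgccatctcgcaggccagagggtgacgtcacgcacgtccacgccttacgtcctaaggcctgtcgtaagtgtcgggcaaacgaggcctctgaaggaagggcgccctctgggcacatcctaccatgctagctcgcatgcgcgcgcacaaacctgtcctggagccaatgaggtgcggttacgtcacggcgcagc
Sdha: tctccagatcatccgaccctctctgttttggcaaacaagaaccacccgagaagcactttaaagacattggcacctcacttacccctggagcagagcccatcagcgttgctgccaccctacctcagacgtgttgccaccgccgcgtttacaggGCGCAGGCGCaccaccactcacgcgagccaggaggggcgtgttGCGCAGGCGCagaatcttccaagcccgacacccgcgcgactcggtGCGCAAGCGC
Ndufa6: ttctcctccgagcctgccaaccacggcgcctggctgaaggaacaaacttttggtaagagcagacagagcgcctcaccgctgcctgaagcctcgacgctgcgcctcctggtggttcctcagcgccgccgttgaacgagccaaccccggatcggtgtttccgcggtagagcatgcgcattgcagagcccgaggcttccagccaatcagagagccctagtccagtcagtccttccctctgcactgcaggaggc
Atp5g2: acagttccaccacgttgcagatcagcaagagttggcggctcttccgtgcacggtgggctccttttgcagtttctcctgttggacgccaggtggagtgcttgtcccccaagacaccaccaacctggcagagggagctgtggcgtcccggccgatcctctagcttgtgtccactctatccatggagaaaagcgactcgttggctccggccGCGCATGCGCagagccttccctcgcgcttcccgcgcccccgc
Sdha carried 3 NRF1 strings in these bases and Atp5g2 carried 1. Cycs and Ndufa6 carried none here, and the NRF1 string of the Ndufa6 window lay after the start. Only exact strings were counted. Near matches were not: tcgcatgcgc in Cycs and gagcatgcgc in Ndufa6 each differ from the NRF1 string by 1 letter. Of the 7 members that fell (below), 3 had the NRF1 string in their window (Ndufa5, Ndufa6 and Atp5g2), and of the 3 that rose, 1 had it (Sdha). Cox5a and Cox6b2, which also differed strongly, had none in their windows, and none of these 10 had the ETS, YY1 or GATA string.

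Signals are the authors' linear intensities, scaled alike on every array. Differences are Gata6-KO minus Gata6-WT on the log2(signal + 16) scale from limma, with Benjamini-Hochberg adjustment over all 27022 probe sets tested, and each gene was read from 1 tested probe set, that of highest mean signal. An adjusted p under 0.05 was called. With 3 arrays against 3, an exact permutation test of a single gene cannot go below p = 0.1, and each group mean rests on 3 arrays. The labels call the replicates biological. In RNA from pooled cells, fewer cells of a type and less RNA per cell cannot be told apart.

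As a check of the labels, 1 Gata6 probe set read 173 to 184 in Gata6-KO against 337 to 483 in Gata6-WT (difference −1.15, adjusted p = 0.00426 by limma) and a second read 2998 to 4452 against 5405 to 7279 (−0.88, adjusted p = 0.0113 by limma). The third did not separate the genotypes (−0.01), and as the removed exons are not known here, none of the 3 can be placed inside or outside them. All 8 macrophage markers were on the arrays, with summed signals of 191859 to 205314 in Gata6-KO and 209307 to 246544 in Gata6-WT, where 1 was called higher and 3 lower. Adgre1 had the widest gap in signal (8528, 14617 and 13301 in Gata6-KO against 39618, 42302 and 47450 in Gata6-WT). The brightest markers, Lyz2 and Csf1r, had overlapping groups, and Mertk lay higher in Gata6-KO. The neutrophil markers summed to 398 to 732 in Gata6-KO and 930 to 1512 in Gata6-WT, most of it S100a8. The gap lay in S100a8 alone. Mpo (55.9, 59.8 and 45.5 against 40.2, 46.8 and 8.96) and S100a9 (3.30, 26.8 and 23.5 against 2.83, 5.19 and 4.31) leaned the other way with overlapping groups. One neutrophil marker was called lower. The summed mast cell markers also did not overlap (325 to 488.8 in Gata6-KO and 489.2 to 606 in Gata6-WT), and none was called. Cpa3 and Cma1 carried this gap, while Tpsb2 leaned the other way with overlapping groups (20.4, 89.1 and 106 against 16.8, 30.3 and 10.3). B cell markers summed to 183 to 349 and 292 to 485, and T cell markers to 90.2 to 223 and 132 to 271. The 3' to 5' signal ratio of Gapdh, a sign of RNA integrity, was 0.697 to 0.722 in Gata6-KO and 0.742 to 0.778 in Gata6-WT, and that of Actb was 1.377 to 1.431 and 1.432 to 1.498, so the genotypes did not overlap in either ratio. The part of these differences in the results was not tested. Replicate 1 of both genotypes showed male-type and replicates 2 and 3 female-type expression of sex-linked genes, so within-type differences are given beside the results. Each male-type difference is 1 array against 1 array, without replication.

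Most subunit genes were close between the genotypes. Of the 88 member genes that passed the filter on low signal, 3 rose in Gata6-KO (Cycs, Cox5a and Sdha) and 7 fell (Ndufa6, Ndufa5, Ndufa1, Ndufb3, Ndufb11, Atp5g2 and Cox6b2). These 10 genes were 11.4% of the members, against 13.1% of all 12511 genes tested (5.61% higher and 7.46% lower). The median difference was −0.05 over the members and −0.04 over all genes, and the quartiles of the members were −0.22 and 0.04, against −0.29 and 0.23 for all genes. Cox6b2 alone differed by more than 1 on the log2 scale (1.14% of the members), against 7.04% of all genes, and not with a pseudocount of 64 (−0.94). Cox6b2 passed the filter on low signal only through its wild-type arrays, and without it 6 members fell and 9 were called. The 3 arrays of one genotype lay wholly above those of the other for 28 members (31.8%; 9 with Gata6-KO above and 19 below), against 34.4% of all genes. By probe set, 18 of 167 tested were called (7 higher, 11 lower), which is 10.8% of the members' and 10.8% of all probe sets (5.12% higher and 5.67% lower). The array groups were separated for 59 of these 167 (35.3%), against 31.0% of all probe sets. Cox7b2, Cox8b and Ndufb4 had no single-symbol probe set above the filter. Bright probe sets that Ndufb4 shares with Ndufb4b and Ndufb4c are outside the rule (below).

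The count of genes that fell was 3 without any single array other than Gata6-WT 1. Without Gata6-WT 1 it was again 7, but of partly different genes: Ndufb3 and Cox6b2 (adjusted p 0.0582 and 0.0568) no longer passed, and Uqcrh (0.0123) and Ndufa3 (0.0387) did. Meanwhile the count that rose was 2 in each of these 6 fits. The count that fell was 4 on the female-type arrays alone, 3 with no filter and 2 without the mean-variance trend. On the female-type arrays only Ndufa6 and Atp5g2 of the 7 passed, so the 4 were partly other genes. Scaling every array to a common median gave 2 higher and 9 lower. With a term for sex-linked type, 7 of the 10 called genes passed, and Sdha, Ndufb11 and Ndufb3 did not. Cycs, Cox5a, Ndufa6 and Ndufa5 passed in all 6 fits that left out 1 array.

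**Figure D1:**
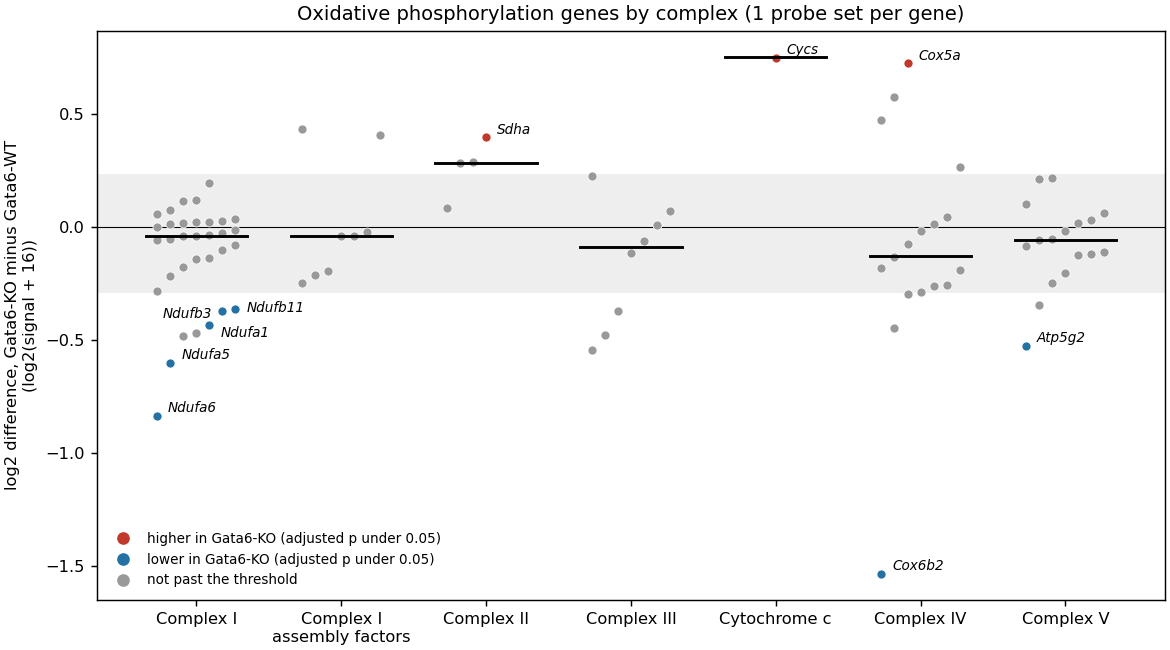
Log2 difference (Gata6-KO minus Gata6-WT) of each tested member gene, in columns by complex; black bars are medians, coloured points passed an adjusted p of 0.05, and the grey band spans the quartiles of all genes tested (−0.29 to 0.23). Complex II has a median of 0.28 with each gene read from its brightest probe set, Cycs and Cox5a stand highest, and the 5 genes that fell in complex I lie below the band.

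Complex I, the NADH dehydrogenase, had 33 tested genes, of which 5 fell and none rose (median −0.04). All 5 are accessory subunits, which surround the catalytic core: 5 of 27 accessory genes were called (18.5%) and 0 of the 6 nuclear core genes, whose median was 0.01. Over all genes tested 13.1% were called and 7.46% were called lower, and the difference between accessory and core genes was not tested, so these counts show nothing particular to either. The core genes Ndufv1 and Ndufv2, of the module that oxidises NADH, differed by 0.12 and −0.18, Ndufs1 of the same module by −0.04, and Ndufs3, Ndufs7 and Ndufs8, of the module that reduces ubiquinone, by 0.02, 0.00 and 0.19. None of these 6 passed the test.

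Ndufa6, an accessory subunit at the base of the peripheral arm, fell most among complex I genes. Its signals were 3340, 3324 and 2771 in Gata6-KO and 5480, 5284 and 6107 in Gata6-WT. The lowest wild-type array thus lay well above the highest knockout array. The difference was −0.84 ± 0.12 (SE), or 1.79-fold lower in Gata6-KO, with an adjusted p of 0.00182 by limma. It was −0.90 within the female-type and −0.71 within the male-type arrays. Ndufa5, another peripheral-arm accessory subunit, had signals of 2156, 2065 and 1971 in Gata6-KO and 3372, 2921 and 3141 in Gata6-WT, again with no overlap. It was 1.52-fold lower (−0.60 ± 0.11, adjusted p = 0.00689 by limma), and its second probe set gave −0.66 (adjusted p = 0.0184 by limma). Within the female-type arrays it was −0.58 (adjusted p 0.056 when these were fitted alone) and within the male-type arrays −0.64.

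The other 3 complex I genes that fell are accessory subunits of the membrane arm, with smaller differences that passed narrowly. Ndufa1, encoded on the X chromosome, had signals of 17652, 19740 and 17877 in Gata6-KO and 22367, 24381 and 28124 in Gata6-WT (−0.43 ± 0.11, adjusted p = 0.0401 by limma). Ndufb11, also X-linked, had 10126, 9776 and 9147 against 11693, 13054 and 12635 (−0.36 ± 0.10, adjusted p = 0.0446 by limma), and all 3 of its probe sets were called lower (−0.46 to −0.36). The groups of both genes did not overlap, and both differences were larger within the female-type arrays (−0.48 and −0.44) than within the male-type arrays (−0.34 and −0.21); the difference between types was not tested. Ndufb3 had 3449, 3377 and 3147 against 4055, 4245 and 4639 (−0.37 ± 0.10, adjusted p = 0.0498 by limma). Ndufa1 and Ndufb11 passed without Gata6-WT 1 (adjusted p 0.0217 and 0.0386) and failed without any other array (0.0763 to 0.158), and Ndufb3 failed in all 6 such fits (0.0582 to 0.141). With a term for sex-linked type, Ndufb11 (0.056) and Ndufb3 (0.060) failed. Ndufa7 (−0.47, adjusted p = 0.0909) and Ndufa3 (−0.48, adjusted p = 0.149) had differences of like size in the limma fit that did not pass, with overlapping array groups. Other bright probe sets of both had separated groups but did not pass either, at −0.49 for Ndufa7 (adjusted p = 0.0830) and −0.61 for Ndufa3 (adjusted p = 0.0713) by limma.

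Of the 9 complex I genes with separated groups, the 4 that did not pass were the accessory genes Ndufb5 (−0.28), Ndufa13 (−0.22) and Ndufb8 (−0.14) and the core gene Ndufv1. Ndufs4, Ndufa9, Ndufb6, Ndufa8, Ndufb7, Ndufv3, Ndufc1 and Ndufc2 lay between 0.01 and 0.12. Ndufab1, which doubles as the mitochondrial acyl carrier protein, was at −0.01. Another 10 probe sets pair a complex I gene with a near-identical copy or a neighbouring gene (for example Ndufb4 with Ndufb4b and Ndufb4c). They are outside the rule, and 8 of them could be tested and none was called.

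The 8 assembly factor genes had a median of −0.04, and none passed the test. The 2 with the largest positive differences were Ndufaf2, with signals of 472, 451 and 507 in Gata6-KO and 280, 479 and 315 in Gata6-WT (0.43, adjusted p = 0.224 by limma), and Ndufaf4, with 744, 1031 and 1003 against 628, 766 and 678 (0.40, adjusted p = 0.151 by limma). The array groups overlapped for both. Ndufaf1, Ndufaf3 and Ndufaf6 lay within 0.05 of no difference.

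**Figure D2:**
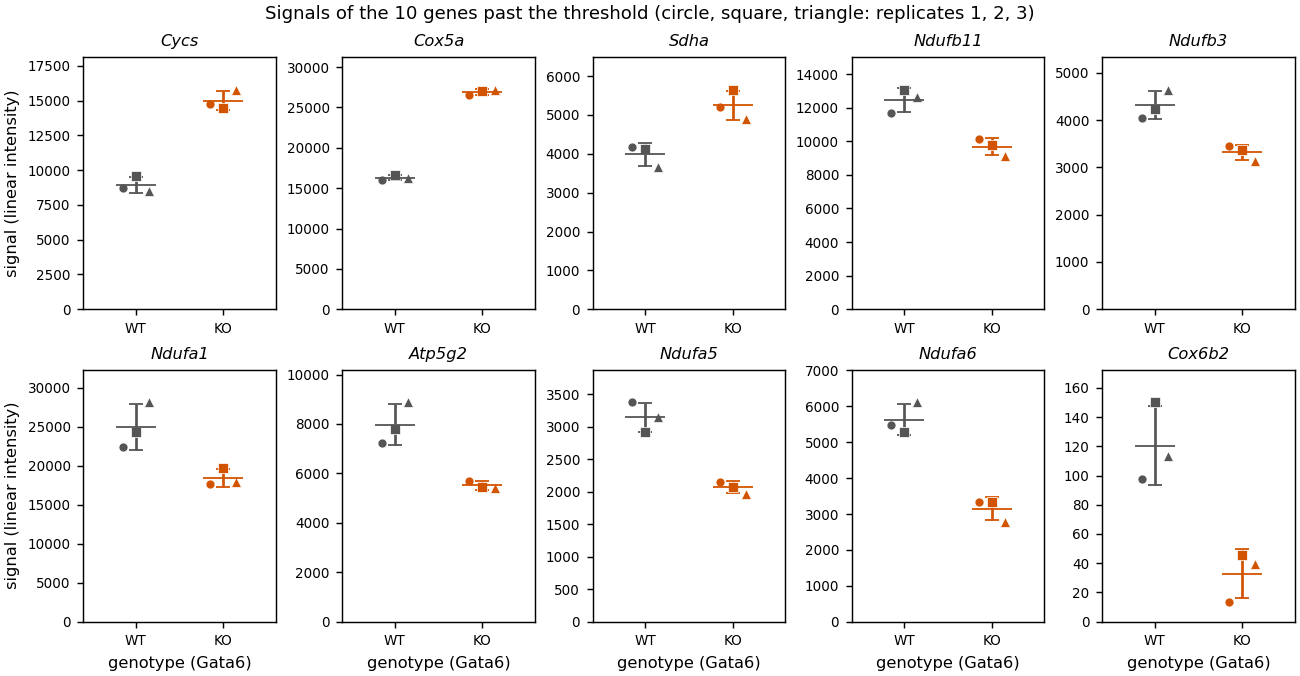
Signals (linear intensity, axes from 0) of the 10 member genes that passed the test, in Gata6-WT and Gata6-KO arrays; marker shapes are replicates 1, 2 and 3, and bars give the mean ± SD (n = 3). No gene has overlapping groups, and Cox6b2 sits at signals of 13.6 to 150 far below the others.

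Complex II, succinate dehydrogenase, which also serves the tricarboxylic acid cycle, had a median of 0.28 over its 4 genes, and 1 passed the test. Sdha, the flavoprotein that oxidises succinate, had signals of 5215, 5643 and 4893 in Gata6-KO and 4179, 4137 and 3653 in Gata6-WT. The groups did not overlap, and the gene was 1.31-fold higher in Gata6-KO (0.39 ± 0.11, adjusted p = 0.0462 by limma; 0.43 within female-type and 0.32 within male-type arrays). Sdhd, a membrane anchor, had 3015, 3587 and 3354 against 2762, 2782 and 2605 (0.28, adjusted p = 0.136 by limma), which also separated the groups. Sdhb, the iron-sulphur subunit, was at 0.28 with overlapping groups (adjusted p = 0.187 by limma) and Sdhc, the other anchor, at 0.08 by one probe set and −0.11 by a second of almost equal mean signal, so that its direction is not settled. Sdha failed the test in all 6 fits without 1 array (adjusted p 0.0611 to 0.163) and with a term for sex-linked type (0.056), and its second probe set gave 0.20 (adjusted p = 0.255 by limma).

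Complex III, which passes electrons from ubiquinol to cytochrome c, had 8 tested genes with a median of −0.09, and none passed. The 2 core proteins Uqcrc1 and Uqcrc2 (0.07 and −0.12) and the Rieske iron-sulphur protein Uqcrfs1 (−0.06) were close to 0. The lowest values belonged to small subunits. Uqcrh, the hinge protein that helps dock cytochrome c1 and cytochrome c, had signals of 7364, 8138 and 6877 in Gata6-KO and 8729, 10956 and 13484 in Gata6-WT (−0.55 ± 0.15, adjusted p = 0.0524 by limma, and 0.0123 without Gata6-WT 1). Uqcr10 had 2459, 2548 and 2447 against 3062, 3149 and 4323 (−0.48, adjusted p = 0.0617 by limma). Both genes had separated groups with Gata6-WT 3 as the highest array, and the other probe sets of Uqcr10 gave −0.10 and 0.38.

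Cytochrome c rose. Somatic cytochrome c (Cycs), the electron carrier between complexes III and IV that also triggers apoptosis when released from mitochondria, had signals of 14764, 14444 and 15761 in Gata6-KO and 8727, 9584 and 8498 in Gata6-WT. Every knockout array was above every wild-type array by a margin larger than the spread within either group. The gene was 1.68-fold higher (0.75 ± 0.10, adjusted p = 0.00138 by limma), the largest positive difference among the members. Its 3 tested probe sets gave 0.63 to 0.91 and were all called. It was 0.74 within the female-type and 0.76 within the male-type arrays, and 0.71 to 0.80 with any 1 array left out. Cycs is known to have processed pseudogenes, and whether their transcripts add to these signals was not tested. The probe set of the testis form, Cyct, stayed at signals of 25.4 to 49.9 and was not tested.

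Complex IV, cytochrome c oxidase, had 17 tested genes, of which 1 rose and 1 fell (median −0.13). Cox5a, a matrix-facing subunit present in one form in all tissues, had signals of 26550, 27030 and 27159 in Gata6-KO and 16045, 16659 and 16203 in Gata6-WT. Each group was tight (SD 321 and 319 around means of 26913 and 16302) and the groups were far apart. The gene was 1.65-fold higher (0.72 ± 0.09, adjusted p = 0.000986 by limma), all 3 probe sets were called at 0.72 to 0.78, and it was 0.72 within the female-type and 0.73 within the male-type arrays. Cox5b, another nuclear subunit of complex IV, had 14645, 14725 and 13721 against 16388, 17267 and 19115, and did not pass (−0.29, adjusted p = 0.106 by limma). Its direction depended on the probe set: a second, also bright, read 13014, 12823 and 13131 against 11016, 11724 and 12586 (0.14, adjusted p = 0.401 by limma), and the other 3 lay between −0.11 and 0.00.

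Cox6b2, a testis isoform of subunit VIb, had low signals of 13.6, 45.3 and 39.2 in Gata6-KO and 97.5, 150 and 114 in Gata6-WT. All knockout signals lie under the filter level of 47.6, so the gene entered the test only because it is higher in the wild type, and its place among the called genes supports nothing about the members. The fit gave −1.54 ± 0.38 (adjusted p = 0.0297 by limma), a size that depends on the pseudocount (−1.99 with 1 and −0.94 with 64). It passed without Gata6-KO 2 (adjusted p 0.0382) and failed without any other array (0.0537 to 0.119). Its general isoform Cox6b1 had 18289, 19010 and 18718 against 17962, 19607 and 21752 (−0.08).

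Complex IV has several subunits with tissue isoforms, and these are given in pairs without setting one probe set's level against another's. Cox4i1, the general form of subunit IV, had signals of 16696, 17210 and 15185 in Gata6-KO and 15658, 17995 and 20463 in Gata6-WT (−0.13), and Cox4i2, known from lung and as responsive to oxygen, had 102, 106 and 113 against 88.8, 82.0 and 151 (0.04). Neither pair of groups was separated. Cox6a1, the liver-type form, had 37452, 35469 and 37188 against 32535, 37780 and 41787 (−0.02), and the heart and muscle form Cox6a2 had 156, 147 and 178 against 69.9, 120 and 126. The Cox6a2 groups did not overlap, yet the difference of 0.57 did not pass (adjusted p = 0.214 by limma). Cox7a1, the muscle form of subunit VIIa, had 121, 179 and 147 against 62.8, 137 and 120 (0.47, adjusted p = 0.379 by limma), and the general form Cox7a2 had 8789, 10205 and 10299 against 8569, 9602 and 10934 (0.01). A second bright probe set of Cox7a2 gave −0.26 with separated groups (adjusted p = 0.167 by limma). Beside these muscle forms, the muscle markers Ckm, Acta1 and Myh4 summed to 385 to 467 in Gata6-KO and 256 to 345 in Gata6-WT; none was called, and their part in the Cox6a2 and Cox7a1 values was not tested.

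Cox7a2l, a relative of subunit VIIa that joins complexes III and IV into supercomplexes, depended on the probe set. The one with the highest mean read 7197, 7862 and 6915 in Gata6-KO and 8059, 8534 and 8308 in Gata6-WT (−0.18, adjusted p = 0.290 by limma). A second read 4658, 5191 and 4508 against 6906, 6824 and 5887 and was called lower (−0.45, adjusted p = 0.0308 by limma), and the third gave −0.33 (adjusted p = 0.103 by limma). All 3 pointed the same way. Cox8a, the general form of subunit VIII, had 5162, 5512 and 4330 against 5436, 5937 and 6611 (−0.26), and the testis-type Cox8c had 353, 355 and 461 against 278, 391 and 298 (0.27). The muscle-type Cox8b stayed at 3.31 to 9.97 and was not tested. Ndufa4, once counted in complex I, had 8267, 8596 and 7831 against 8861, 9857 and 11892 (−0.30, adjusted p = 0.166 by limma), with separated groups, and its relative Ndufa4l2 had 106, 17.4 and 115 against 110, 66.8 and 114 (−0.45), where 1 knockout array was low. Cox6c was at −0.19 and was not called. Cox7c was at −0.26, also not called, and was read from a weak probe set (174, 174 and 107 against 179, 203 and 163).

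Complex V, the ATP synthase, had 17 tested genes with a median of −0.06, of which 1 fell. Atp5g2 is 1 of 3 genes (Atp5g1, Atp5g2, Atp5g3) for the same mature subunit c, which forms the rotating membrane ring. Its signals were 5711, 5431 and 5402 in Gata6-KO and 7241, 7815 and 8871 in Gata6-WT, without overlap. It was 1.44-fold lower (−0.53 ± 0.11, adjusted p = 0.0135 by limma; −0.62 within female-type and −0.34 within male-type arrays), and it failed without Gata6-KO 2 (adjusted p 0.0559). Atp5g1 had 2151, 2186 and 2624 against 2476, 2701 and 3797 (−0.34, adjusted p = 0.236 by limma). Atp5g3 had 17538, 17389 and 18201 against 13435, 17060 and 15620 and thus lay on the other side of 0 (0.21, adjusted p = 0.279 by limma).

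The 5 genes of the catalytic head and central stalk had a median of −0.09 and none was called. Atp5b, the catalytic beta subunit, had 16414, 16131 and 16257 in Gata6-KO and 13913, 14116 and 14012 in Gata6-WT. The groups were tight and separated, but the small difference of 0.21 did not pass (adjusted p = 0.170 by limma). The alpha subunit Atp5a1 was at −0.06 by one probe set. A second, also bright, gave 0.19 with separated groups (adjusted p = 0.271 by limma), so that its direction is not settled. Atp5c1, Atp5d and Atp5e were at −0.09 to −0.13. In the peripheral stalk, Atp5o (OSCP), Atp5pb, Atp5h and Atp5j lay between −0.05 and 0.10, and a second probe set of Atp5o gave 0.24 (adjusted p = 0.184 by limma). The small membrane subunits Atp5l (−0.25) and Atp5k (−0.21) did not pass, and Atp5mpl had 5296, 5526 and 5306 against 4247, 5033 and 9197, a spread within the wild type larger than the difference of −0.11.

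The array Gata6-WT 3 was the highest of the 6 for 36 of the 88 members (40.9%), against 24.2% of all genes. This held for 14 of 33 genes in complex I, 9 of 17 in complex IV, 10 of 17 in complex V and 0 of 4 in complex II. Relative to each gene's wild-type mean, the members' median was −0.075, −0.001 and 0.049 on Gata6-WT 1, 2 and 3, and −0.03, −0.05 and −0.09 on Gata6-KO 1, 2 and 3. Without Gata6-WT 3, the median difference moved from −0.06 to 0.00 for complex V and from −0.13 to −0.04 for complex IV, and was 0.26 for complex II and −0.03 for complex I. Arrays of the same genotype correlated at r = 0.964 to 0.972 across the 27022 probe sets tested, and arrays of different genotypes at 0.930 to 0.951. Probe sets are not independent replicates.

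**Figure D3:**
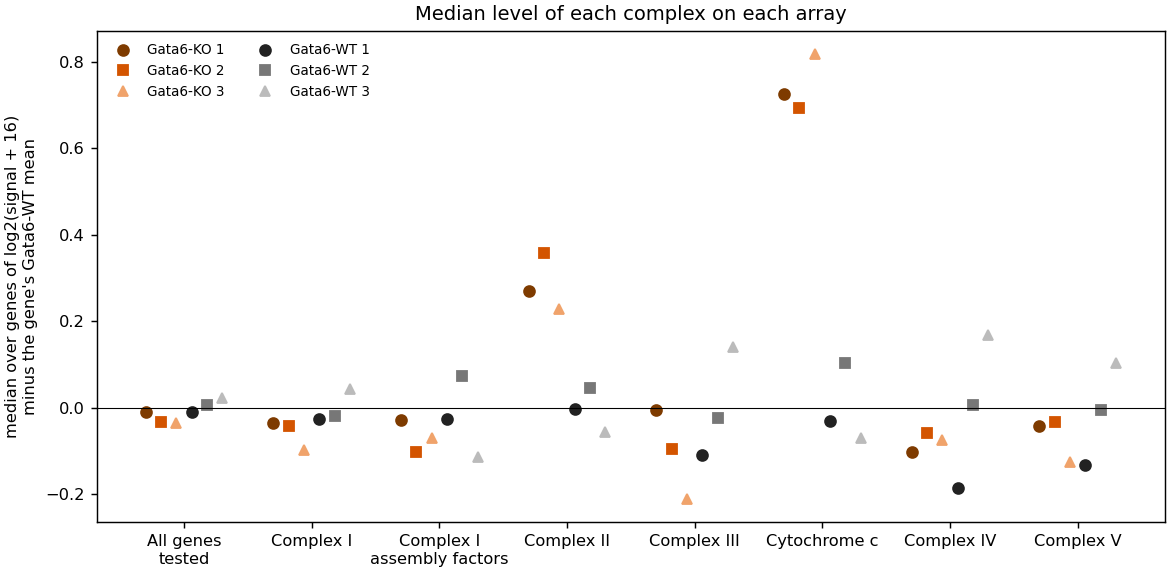
Median over genes of log2(signal + 16) relative to each gene's Gata6-WT mean, for each complex and all genes, 1 point per array. Complex II is at 0.23 to 0.36 on the 3 knockout arrays and −0.06 to 0.05 on the wild-type arrays, while in complexes IV and V the wild-type arrays spread from −0.19 to 0.17 and −0.13 to 0.10, around the knockout arrays.

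Probe sets of one gene gave a further check for the 49 members with several that were tested, and no gene had probe sets called in opposite directions. The 3 probe sets each of Cycs and Cox5a, the 3 of Ndufb11 and the 2 of Ndufa5 moved alike. The second tested probe set of Atp5g2 read 47.3, 63.2 and 31.1 in Gata6-KO and 123, 95.5 and 116 in Gata6-WT; its knockout mean lies under the filter level, so it is no check of that gene's call. Probe sets that differed by over 1 on the log2 scale were those with a weak member. Ndufc2 had 3 probe sets between −0.05 and 0.03 and a weak one at −1.35 (adjusted p = 0.0761 by limma), which read 93.1, 128 and 26.7 in Gata6-KO and 172, 191 and 268 in Gata6-WT. Ndufab1 ranged from −0.38 to 0.68 over 5 probe sets and Cox8a from −0.33 to 0.72 over 3. Weak probe sets gave both extremes of Ndufab1 and the highest value of Cox8a. The highest of Ndufab1 read 123, 111 and 112 against 85.7, 108 and 27.4, and that of Cox8a 104, 102 and 40.7 against 47.0, 93.6 and 9.88. The lowest of Cox8a was a bright probe set with separated groups (adjusted p = 0.0973 by limma). It read 4625, 4930 and 4214 against 5348, 5642 and 6324. None of these was called.

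**Figure D4:**
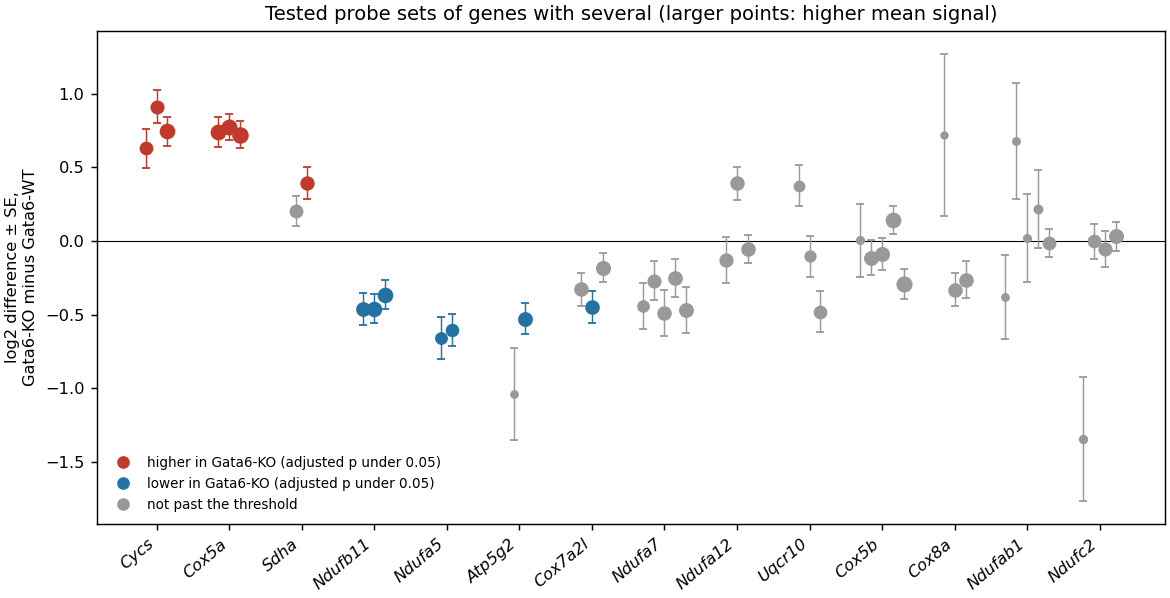
Log2 difference ± SE of every tested probe set of 14 member genes with several probe sets, with point size rising with mean signal. The probe sets of Cycs (0.63 to 0.91) and Cox5a (0.72 to 0.78) lie together, while those of Ndufc2, Ndufab1 and Cox8a are spread by a small point far from the rest.

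The other genes of the pathway were read from 9 lists with 199 tested genes, of which 9 rose and 8 fell (8.54%, against 13.1% of all genes). ND5, the only mitochondrially encoded subunit among the single-symbol probe sets, fell: its signals were 13766, 13376 and 14012 in Gata6-KO and 18050, 21962 and 27140 in Gata6-WT, without overlap (−0.69 ± 0.14, adjusted p = 0.0146 by limma). It encodes a proton-pumping subunit of complex I. The difference was −0.83 within the female-type and −0.39 within the male-type arrays, and the test failed without Gata6-KO 2 (adjusted p 0.0568) or Gata6-WT 2 (0.0516).

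Of 18 genes for cytochrome c1 and the assembly of complexes I to III, 2 rose and none fell (median 0.09). Sdhaf2, which attaches the flavin to Sdha, was 1126 ± 64 (SD, n = 3) in Gata6-KO and 772 ± 35.7 in Gata6-WT (0.54 ± 0.12 (SE), adjusted p = 0.0202 by limma). Dmac1, an assembly factor of the complex I membrane arm, was 8265 ± 178 and 5332 ± 1141 (0.65 ± 0.15, adjusted p = 0.0221 by limma). Sdhaf2 failed without Gata6-KO 1, Gata6-KO 3 or Gata6-WT 2 (adjusted p 0.0648 to 0.0708), and Dmac1 failed without any 1 knockout array or Gata6-WT 2 (0.0605 to 0.0764). Cyc1, the cytochrome c1 subunit itself, was at 0.20 (adjusted p = 0.219 by limma). Among 21 genes for complex IV assembly and copper delivery, only Higd1a, a hypoxia-inducible protein that associates with complex IV, was called. It was 3041 ± 225 in Gata6-KO and 1865 ± 145 in Gata6-WT (0.70 ± 0.11, adjusted p = 0.00434 by limma) and passed without any 1 array. The list's median was −0.07.

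The list for ATP synthase assembly, its inhibitor and nucleotide exchange had 5 of 9 genes called, 2 higher and 3 lower (median −0.10), against 13.1% called over all genes. The adenine nucleotide translocators, which exchange ADP for ATP across the inner membrane, went in opposite directions. Slc25a5 was 18629 ± 428 in Gata6-KO and 13112 ± 1082 in Gata6-WT (0.51 ± 0.10, adjusted p = 0.0113 by limma), and Slc25a4 was 3455 ± 76.3 and 4685 ± 276 (−0.44 ± 0.10, adjusted p = 0.0215 by limma). The Slc25a5 probe set is of the x_at type, which can also bind similar transcripts, and the part of this in its value was not tested. The phosphate carrier Slc25a3 was higher (22014 ± 464 against 16501 ± 559, adjusted p = 0.0191 by limma). The ATP synthase inhibitor Atpif1 was lower (4806 ± 289 against 6534 ± 219, adjusted p = 0.0196 by limma), as was the assembly factor Fmc1 (796 ± 81.9 against 1320 ± 343, adjusted p = 0.0385 by limma). Slc25a5 failed without Gata6-KO 2 (adjusted p 0.0545), Atpif1 without Gata6-KO 1, Gata6-KO 2 or Gata6-WT 2 (0.0566 to 0.0801), Slc25a3 without any 1 knockout array or Gata6-WT 2 (0.0653 to 0.0688), Slc25a4 without any array other than Gata6-WT 3 (0.0588 to 0.0690) and Fmc1 without any array other than Gata6-WT 1 (0.0648 to 0.120).

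Among 20 genes for other electron entry, uncoupling and ubiquinone synthesis, 1 rose and 1 fell (median 0.05). Prodh, proline dehydrogenase, was 114 ± 14.3 in Gata6-KO and 350 ± 110 in Gata6-WT (−1.46 ± 0.24, adjusted p = 0.00488 by limma) and passed without any 1 array. Sqor, which feeds electrons from sulphide to ubiquinone, was 3975 ± 407 and 2866 ± 197 (0.47 ± 0.12, adjusted p = 0.0318 by limma) and failed without any array other than Gata6-KO 3 (0.0613 to 0.123). The 14 genes for haem and iron-sulphur supply held 1 gene that rose, Hccs (0.43, adjusted p = 0.0478 by limma), which attaches haem to cytochrome c, and 1 that fell, the iron-sulphur scaffold Iscu (−0.47, adjusted p = 0.0418 by limma). Both failed in all 6 fits without 1 array (0.0638 to 0.148).

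Of 21 regulators of mitochondrial biogenesis and of mitochondrial DNA expression, only Twnk, the mitochondrial DNA helicase, was called (median −0.04). It was 118 ± 20.1 in Gata6-KO and 282 ± 80.2 in Gata6-WT (−1.14 ± 0.24, adjusted p = 0.0166 by limma), and failed without Gata6-KO 3 (0.0581) or Gata6-WT 2 (0.0686). The regulators Nrf1 (0.39), Gabpa (0.35), Esrra (−0.05), Tfam (−0.29) and Ppargc1b (0.50) did not pass, with adjusted p of 0.307, 0.206, 0.860, 0.227 and 0.0699 by limma. None of 19 genes for mitochondrial mass, import and cristae was called by limma (median 0.09), and the 2 with the smallest p were the chaperone Hspa9 (0.38, adjusted p = 0.0677) and the translocase Timm23 (0.33, adjusted p = 0.0763). Of 76 mitochondrial ribosomal protein genes, 2 rose and 1 fell (3.95%, median 0.03). Mrps25 was 1624 ± 177 in Gata6-KO and 965 ± 28.5 in Gata6-WT (0.73 ± 0.12, adjusted p = 0.00524 by limma) and passed without any 1 array. Mrpl34 (0.54, adjusted p = 0.0214) and Mrps15 (−0.51, adjusted p = 0.0316) passed in the limma fit, but Mrpl34 passed only without Gata6-KO 1 or Gata6-WT 3 (0.0562 to 0.0737 in the other 4 fits) and Mrps15 only without Gata6-WT 2 (0.0613 to 0.107 in the others).

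**Figure D5:**
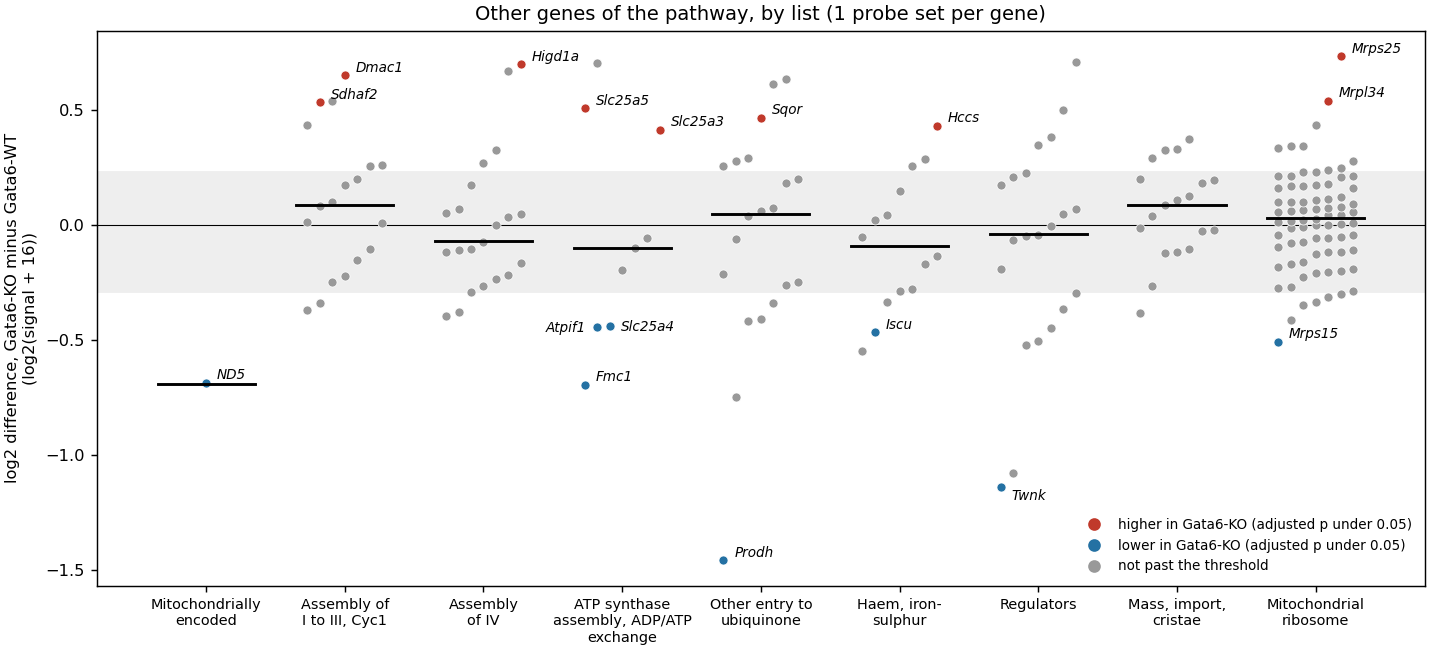
Log2 difference (Gata6-KO minus Gata6-WT) of the 199 tested genes in 9 lists of other pathway genes; black bars are list medians and the grey band spans the quartiles of all genes tested. Medians of the lists other than ND5 lie between −0.10 and 0.09, and the 5 called genes of the ATP synthase and exchange list lie on both sides of 0.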

How the data were processed

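Expression was measured on 6 Affymetrix arrays, 3 per genotype. The deposited values are linear signal intensities per probe set, made by the authors with MAS5 and the affy package per the submitters' processing notes; on every array the mean without the highest and lowest 2% was 500. The sources used here give no versions. MAS5 corrects each array by itself. On the log2 scale, probe sets with low signal tend to vary most. From these intensities, log2(signal + 16) was taken, 64 control probe sets were left out, and of 45101 probe sets in the table those with a mean above the 40th percentile (5.99 on the log2 scale, a signal of 47.6) were tested: 27022. Genotypes were compared with limma 3.58.1 in R 4.3.3 (lmFit, eBayes with trend; two-sided, residual df 4, genotype only), with Benjamini-Hochberg adjustment over all tested probe sets and a threshold of 0.05. Steps were tested on simulated data. Symbols came from the platform annotation (34958 probe sets with 1 symbol, 932 with several, 9211 with none), and all 91 member genes were found in the RefSeq gene table of GRCm38.p6. Arrays give no read depth: their number, 3 per group, limits the precision.

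The members, gene lists, markers and tests were chosen with earlier results of these data known. Values on every array are given for members with a called probe set, for members whose probe sets differ by over 1 or lie on opposite sides of 0 with 1 called, for the 2 genes with the smallest p in a complex without a call, and for tissue isoforms; from each other list, up to 4 called genes with the largest change, or the 2 with the smallest p, were to be named. The fifth called gene of the ATP synthase list, Cyc1, the regulators that did not pass and the other members shown by array were named after their values were seen. Alternatives were pseudocounts of 1 and 64, no filter, a filter at the 60th percentile, quantile and median scaling, no trend, array weights, a replicate block, a term for sex-linked type, female-type arrays alone, each array left out, averaging the probe sets of a gene and a threshold of 0.01. Replicate numbers did not pair the arrays by the rule used (3 of 3 correlations over 0.1 were needed).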

Additional observations from a re-analysis of the deposited data

How the results depend on the processing

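The median differences of complexes II, III, IV and V, of cytochrome c and of the assembly factors moved by less than 1 SD between arrays under every alternative run. The count of 7 lower members became 4 on female-type arrays alone, 3 without the filter and 2 without the trend. It became 2 at an adjusted p under 0.01, and 3 to 7 with 1 array left out (3 without any array other than Gata6-WT 1). The 4 on female-type arrays were partly other genes, as only Ndufa6 and Atp5g2 of the 7 passed there. The 18 called member probe sets became 10 on female-type arrays, 8 without the trend, 7 at 0.01, and 8 to 18 with 1 array left out. With each array scaled to a common median, the median was −0.10 over all members and −0.09 for complex I, while that of all genes was −0.083; averaging the probe sets of each gene put complex I at −0.08. For the other pathway genes, 9 higher and 8 lower, the alternatives were added after the data were seen: the counts became 2 and 2 on female-type arrays, 2 and 2 without the trend, 2 and 1 at 0.01, and 3 to 8 and 2 to 6 with 1 array left out. Fewer arrays entered the fits on female-type arrays and those that left 1 out; for the other settings the cause was not tested. Same-numbered arrays of the 2 genotypes had correlated deviations of r = 0.128, 0.074 and 0.074, against −0.073 to −0.009 for different numbers, and each array correlated best with its own number, which is a hint from the data and not the design. With the replicate block, 3 members were higher and 4 lower and 17 probe sets were called, and 7 of the 10 called genes passed, all but Ndufa1, Ndufb11 and Ndufb3 (adjusted p 0.056, 0.071 and 0.069). With the term for sex-linked type, 2 members were higher and 6 lower. Cycs, Cox5a and Ndufa6 passed under every alternative run for them. With 3 arrays a side, small differences at low signal could not be resolved.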
